A study of Arabidopsis thaliana with 6 samples.

Results

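The comparison set rosette leaves of the ibm1-3 mutant against rosette leaves of wild type (WT) Arabidopsis thaliana after 48 hours of high light. It rests on 4 of the 6 libraries of the study, chosen by the submitters' labels: 2 libraries of ibm1-3 and 2 of WT, all in the Columbia background, from plants of 30 days grown in a greenhouse under long days. The high light treatment was shared by both genotypes, so every difference below is between genotypes within high light; the low light libraries are not analysed here. Each ibm1-3 library was deposited in 1 table with 1 WT library, and these tables are called pair 1 and pair 2. The genotype of each column was taken from its heading. The description labels go against this pairing, since they place both WT libraries with the first table and both ibm1-3 libraries with the second, while the headings of each table name both genotypes. The labels name 1 mutant allele and do not say whether a library came from 1 plant or a pool, nor whether pair 1 and pair 2 were grown or sampled apart. The p-values therefore reflect no more than how far these libraries differ from each other, and that spread may be technical.

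IBM1 is a jumonji-type histone demethylase that removes methyl groups from lysine 9 of histone H3 in the bodies of active genes. In plants that lack it, the mark and CHG DNA methylation build up in many transcribed genes. High light is an energy surplus for a leaf. It drives sugar and starch accumulation, oxidative stress and flavonoid pigment synthesis, and many of the genes concerned are also under the control of the circadian clock and of sugar status.

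IBM1 itself (AT3G07610; chromosome 3, 2425884 to 2433113, TAIR10.1) did not separate the genotypes at the level of its transcript. It stood at 17.6 and 7.46 FPKM in the ibm1-3 libraries, against 13.8 and 8.34 FPKM in the WT libraries. The mutant value was the higher one in pair 1 and the lower one in pair 2, and the fitted difference of 0.09 ± 0.13 on the log2 scale (SE, 2 libraries of each genotype) was not called (limma, adjusted p = 0.526). It was -0.18 with size factors. All directions below are therefore those of the libraries labelled ibm1-3 relative to those labelled WT.

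Values are FPKM, fragments scaled to transcript length and library size. Fold changes are differences of log2(FPKM + 1), ibm1-3 over WT, tested with limma with the pair as a block and Benjamini-Hochberg adjustment over 17399 genes. Pair 1 held 12431279 fragments of ibm1-3 and 12056479 of WT over the genes shared by both tables, and the depth of pair 2 was not given. The leaf label was checked with RBCS1A, a small Rubisco subunit, which was abundant in every library and stood at 1777 and 4259.8 FPKM in the ibm1-3 libraries, against 8597 and 18229 FPKM in the WT libraries. The 100 most abundant genes held 17.6% and 17.3% of the FPKM sum in the ibm1-3 libraries, against 25.3% and 26.7% in the WT libraries. In bulk leaf RNA, fewer cells of a type and less RNA per cell cannot be told apart.

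At a false discovery rate of 0.05, 13087 genes (75.2%) were called, 8564 (49.2%) higher and 4523 (26.0%) lower in ibm1-3. Without the pair as a block the calls were 4622, 3161 higher and 1461 lower. Since most genes passed, gene groups are read against a stricter rule: called, and at least 2-fold the same way in both pairs. That rule took 4307 genes (24.8%), 2814 (16.2%) higher and 1493 (8.58%) lower in ibm1-3. At least 4-fold differences in both pairs were seen in 650 genes that were higher and 381 that were lower, and at least 16-fold differences in 54 that were higher and 36 that were lower. The balance of the directions depended on the scaling. The log2 fold change of the median gene was 0.25 with FPKM as deposited and -0.01 with size factors, a shift of -0.26. They then gave 12813 calls (73.6%), 6305 (36.2%) higher and 6508 (37.4%) lower, and 4069 genes (23.4%) at least 2-fold in both pairs, 1967 (11.3%) higher and 2102 (12.1%) lower. Medians of the gene groups are given below on both scales, except for root, flower and meristem markers, of which few were tested.

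The pairs gave closely similar ratios. Of the genes tested, 91.2% had a ratio of the same sign in both pairs, and Pearson's r of the ratios was 0.965 over genes, which do not count as replicates. The difference between the pair ratios had an SD of 0.39 on the log2 scale for genes of 1 to 5 FPKM, 0.27 for 5 to 20 FPKM, 0.20 for 20 to 100 FPKM and 0.22 above 100 FPKM. Only 2 genes were at least 2-fold in opposite directions in the pairs. The 2-fold genes lay on all 5 nuclear chromosomes in like shares, with 15.7% to 16.9% of tested genes higher and 7.84% to 9.56% lower.

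**Figure D1:**
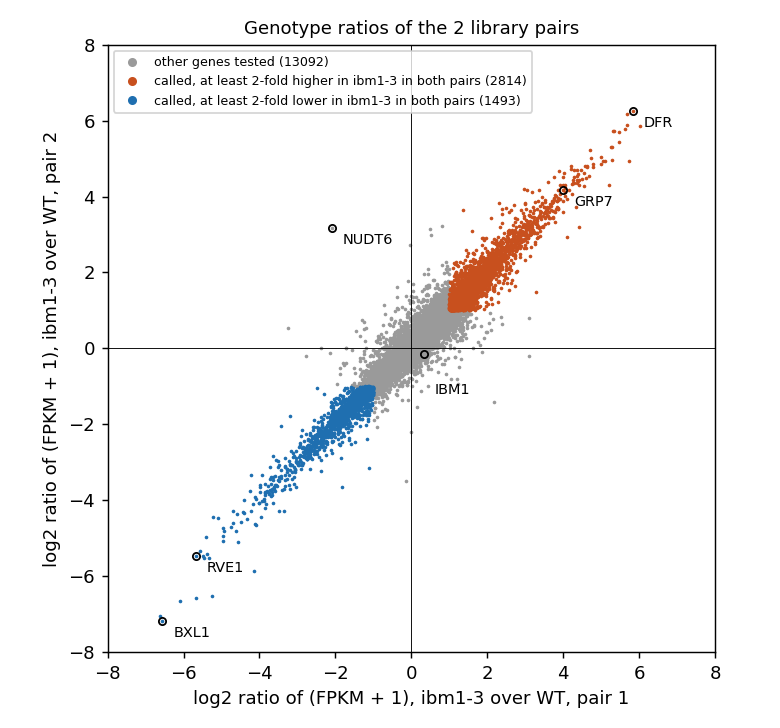
Each point is 1 of 17399 genes, placed by its log2 ratio of (FPKM + 1), ibm1-3 over WT, in pair 1 (horizontal) and pair 2 (vertical); colours mark the 2814 genes at least 2-fold higher and the 1493 at least 2-fold lower in ibm1-3 in both pairs. Most points follow the diagonal, IBM1 lies near the origin, and NUDT6 is far off the diagonal.

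**Figure D2:**
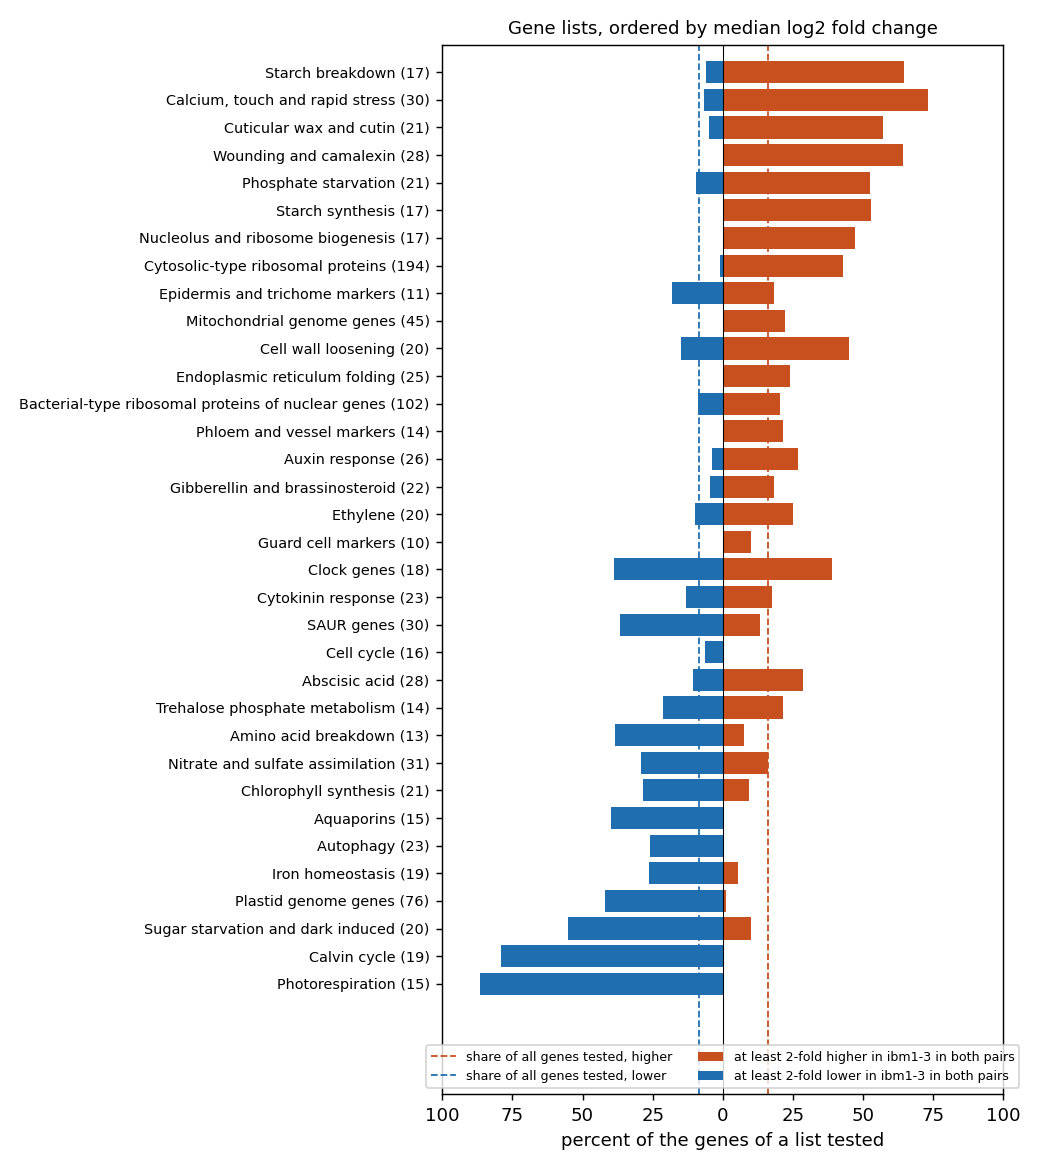
Bars give, for each gene list with at least 10 genes tested (number in brackets), the percent of its genes at least 2-fold higher in ibm1-3 in both pairs (to the right) and at least 2-fold lower (to the left), beside the shares of all genes tested, 16.2% and 8.58% (dashed lines). Photorespiration and Calvin cycle genes reach furthest to the left, and calcium, touch and rapid stress genes furthest to the right.

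Clock genes of opposite phase stood apart between the genotypes. In the plant clock the morning factors CCA1 and LHY repress evening genes such as TOC1, TOC1 represses CCA1 and LHY in turn, and related REVEILLE proteins such as RVE8 activate evening genes. All 18 clock genes listed were tested, and 7 were at least 2-fold higher and 7 at least 2-fold lower in ibm1-3 in both pairs (7 and 8 with size factors). CCA1 had 10.7 and 7.09 FPKM in the ibm1-3 libraries, against 284 and 225 FPKM in the WT libraries, a log2 fold change of -4.71 ± 0.07, adjusted p = 1.79e-08. LHY had 15.5 and 12 FPKM in ibm1-3 against 294 and 219 FPKM in WT (-4.12 ± 0.06, adjusted p = 1.79e-08). RVE1, a morning factor that also drives auxin synthesis, had 1.4 and 1.97 FPKM in ibm1-3 against 121 and 131 FPKM in WT (-5.57 ± 0.09, adjusted p = 1.79e-08). For each of these morning genes both mutant values lay more than 10-fold below both WT values. Of the genes that follow, TOC1, LUX, GI, PRR9 and PRR5 were outside the rule for named genes and were picked after their values were seen. TOC1 had 65.5 and 61.6 FPKM in ibm1-3 against 19.4 and 18.2 FPKM in WT (1.71 ± 0.07, adjusted p = 4.55e-07). LUX (PCL1) had 18.4 and 14.2 FPKM in ibm1-3 against 4.12 and 2.51 FPKM in WT (2.02 ± 0.11, adjusted p = 2.45e-06). GI had 8.04 and 8.11 FPKM in ibm1-3 against 0.92 and 1.05 FPKM in WT (2.19 ± 0.13, adjusted p = 3.65e-06). In these evening genes the mutant libraries were the high ones without overlap. Of the pseudo-response regulators that follow each other through the day, PRR9, the earliest, had 0.29 and 0.39 FPKM in ibm1-3 against 3.68 and 3.02 FPKM in WT (-1.70 ± 0.16, adjusted p = 4.65e-05). PRR5, a later one, had 43.1 and 25 FPKM in ibm1-3 against 39.6 and 23.3 FPKM in WT and was not called (0.11 ± 0.07, adjusted p = 0.188), and stood at -0.18 on the log2 scale with size factors. The median of the list, 0.19 (-0.10 with size factors), hides this split. The labels give no hour of harvest, and these clock values accompany every gene group described below; their part in those results was not tested.

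GRP7, a glycine-rich RNA-binding protein whose transcript follows the clock with an evening peak, had the largest gain in FPKM of all genes taken by the stricter rule. It stood at 2589 and 2336 FPKM in the ibm1-3 libraries, against 161 and 129 FPKM in the WT libraries (4.08 ± 0.07, adjusted p = 1.85e-08). Its promoter is shown because it holds 3 copies of the evening element AAAATATCT, the motif bound by CCA1 and LHY. The 250 bases before the gene start, from the RefSeq TAIR10.1 genome and annotation, follow 5′ to 3′, with the element and its reverse complement in capitals.
GRP7 (chr2:9266558-9266807, reverse strand): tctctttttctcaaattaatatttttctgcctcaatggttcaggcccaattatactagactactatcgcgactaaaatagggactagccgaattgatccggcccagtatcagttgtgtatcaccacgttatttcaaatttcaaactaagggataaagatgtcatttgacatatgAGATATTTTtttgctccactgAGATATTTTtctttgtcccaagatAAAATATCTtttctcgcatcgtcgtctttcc
The copies begin 76, 55 and 31 bases before the start. The next promoter is that of ISA3, an isoamylase that removes branches from starch and one of the starch genes described next; it holds 1 copy, 39 bases before the start.
ISA3 (chr4:5783659-5783908, forward strand): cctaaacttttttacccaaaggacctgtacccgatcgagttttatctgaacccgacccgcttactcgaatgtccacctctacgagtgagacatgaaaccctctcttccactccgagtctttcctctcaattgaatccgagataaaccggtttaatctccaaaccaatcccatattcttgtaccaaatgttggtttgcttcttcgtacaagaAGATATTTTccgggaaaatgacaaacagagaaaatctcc
Over windows from 250 bases before to 50 bases after the gene start, 5.49% of the 2803 genes at least 2-fold higher held the evening element on either strand, against 2.74% of the 1460 at least 2-fold lower and 3.25% of all 17276 genes with a window. Among genes at least 4-fold higher in both pairs it was 7.87% of 648, and among those at least 16-fold higher 16.7% of 54. These shares describe sequence and carry no test.

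Genes of starch breakdown were mostly higher in ibm1-3. Transitory starch is taken apart by phosphorylation of the granule (SEX1), removal of that phosphate (SEX4), debranching (ISA3, LDA) and β-amylases, and the maltose released is processed in the cytosol by DPE2 and PHS2. Of 17 genes, all tested, 14 rose and 3 fell, and 11 were at least 2-fold higher and 1 at least 2-fold lower in both pairs; the median log2 fold change was 2.46 (2.18 with size factors). ISA3 stood at 118 and 117 FPKM in the ibm1-3 libraries, against 4.25 and 4.37 FPKM in the WT libraries (4.48 ± 0.07, adjusted p = 1.85e-08). SEX4, the phosphoglucan phosphatase, had 282 and 238 FPKM in ibm1-3 against 12.2 and 11.1 FPKM in WT (4.37 ± 0.06, adjusted p = 1.79e-08). PHS2, the cytosolic glucan phosphorylase, had 376 and 322 FPKM in ibm1-3 against 18.6 and 14.9 FPKM in WT (4.31 ± 0.06, adjusted p = 1.48e-08). For these 3 enzymes the lowest mutant value was over 10-fold above the highest WT value. SEX1, DPE2 and CT-BMY were picked after their values were seen. SEX1, the glucan water dikinase, had 197 and 164 FPKM in ibm1-3 against 34.8 and 27.9 FPKM in WT (2.49 ± 0.06, adjusted p = 5.94e-08). CT-BMY (AT4G17090), the main β-amylase of leaf chloroplasts, was far more abundant and differed little, with 1805 and 1103 FPKM in ibm1-3 against 1539 and 900.3 FPKM in WT (0.26 ± 0.07, adjusted p = 0.00943, and adjusted p = 0.693 without the replicate block; -0.04 with size factors). DPE2, the cytosolic transglucosidase, had 113 and 123 FPKM in ibm1-3 against 13.4 and 14 FPKM in WT (3.02 ± 0.06, adjusted p = 4.34e-08). The genes that fell were the β-amylase family members BAM9 and BAM1 and a glucose carrier of the plastid. BAM9, a β-amylase relative without catalytic activity, had 4.08 and 4.98 FPKM in the ibm1-3 libraries, against 204 and 273 FPKM in the WT libraries (-5.43 ± 0.07, adjusted p = 1.48e-08). BAM1, an active β-amylase, had 195 and 196 FPKM in ibm1-3 against 289 and 263 FPKM in WT and fell by less, -0.49 ± 0.06, adjusted p = 0.000237, with adjusted p = 0.132 without the replicate block.

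Starch synthesis genes were higher as well. Of 17 genes 13 rose and 2 fell, with 9 at least 2-fold higher and none at least 2-fold lower in both pairs, and a median of 1.17 (0.88 with size factors). With size factors 8 were at least 2-fold higher and 2 lower. GPT2, which carries glucose 6-phosphate into plastids and is a known target of sugar and high light, had 271 and 648 FPKM in the ibm1-3 libraries, against 5.92 and 11.3 FPKM in the WT libraries (5.51 ± 0.10, adjusted p = 2.46e-08). SBE2.1, a starch branching enzyme, had 103 and 102 FPKM in ibm1-3 against 9.18 and 8.23 FPKM in WT (3.42 ± 0.07, adjusted p = 4.34e-08). The large subunits of ADP-glucose pyrophosphorylase, the committed step, differed in direction. APL3, the sugar-induced subunit, had 99.2 and 97.4 FPKM in ibm1-3 against 12.8 and 11.7 FPKM in WT (2.90 ± 0.07, adjusted p = 5.78e-08), whereas APL1, the main leaf subunit, had 69.1 and 64.1 FPKM in ibm1-3 against 129.6 and 116 FPKM in WT (-0.87 ± 0.06, adjusted p = 7.15e-06). The mutant libraries were therefore high for APL3 and low for APL1, with no overlap in either.

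**Figure D3:**
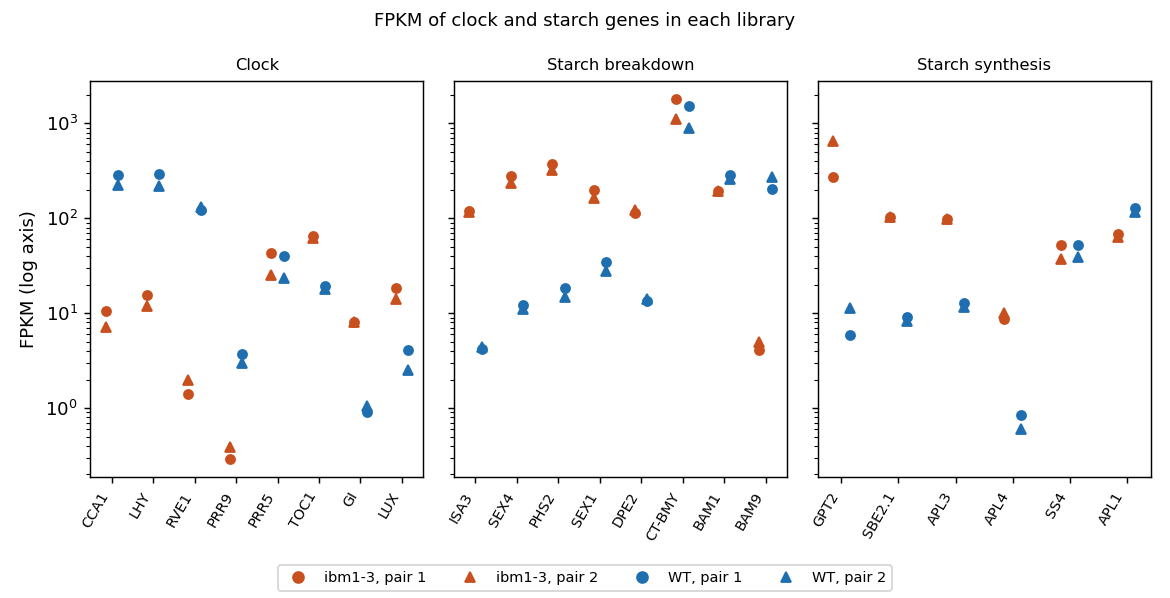
FPKM (log axis) of clock, starch breakdown and starch synthesis genes in each library, ibm1-3 left of WT for each gene; circles are pair 1 and triangles pair 2. Morning clock genes CCA1, LHY and RVE1 and the β-amylase relative BAM9 are low in ibm1-3, and evening genes TOC1, GI and LUX and most starch genes are high.

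Genes that mark darkness and sugar shortage were mostly lower in ibm1-3. Plant cells short of sugar switch on a shared set of transcripts through the SnRK1 kinase, among them cell wall hydrolases, SEN1 (DIN1) and genes of amino acid breakdown, and sugar keeps them off. Of 20 genes listed, 14 fell and 4 rose, with 11 at least 2-fold lower and 2 at least 2-fold higher in both pairs, and a median of -1.32 (-1.43 with size factors). BXL1, a β-xylosidase of the cell wall, had the lowest fold change among genes of at least 5 FPKM on average. It stood at 0.93 and 0.75 FPKM in the ibm1-3 libraries, against 180.4 and 251 FPKM in the WT libraries (-6.86 ± 0.14, adjusted p = 3.75e-08). BGAL4, a β-galactosidase, had 0.93 and 1.6 FPKM in ibm1-3 against 86.2 and 115 FPKM in WT (-5.49 ± 0.09, adjusted p = 1.79e-08). SEN1 (AT4G35770) had 2.64 and 3.16 FPKM in ibm1-3 against 172 and 166 FPKM in WT (-5.45 ± 0.09, adjusted p = 1.79e-08). In each of these the WT libraries were the high ones by over 50-fold. The 2 members at least 2-fold higher were GPT2 and EXL2. GPT2 is counted in this list although it is described above as a target of sugar, so its rise is not that of a starvation marker. EXL2, an EXORDIUM-like protein, had 185 and 439 FPKM in ibm1-3 against 38.6 and 73.3 FPKM in WT (2.4 ± 0.08, adjusted p = 2.86e-07).

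The promoters of SEN1, of BAM9 and of AT3G15450, which had 3.42 and 2.95 FPKM in ibm1-3 against 433 and 525 FPKM in WT (-6.84 ± 0.10, adjusted p = 1.79e-08), are shown because they hold the sugar repression element TTATCC, capitalised on either strand in the 250 bases before the start.
SEN1 (chr4:16944628-16944877, forward strand): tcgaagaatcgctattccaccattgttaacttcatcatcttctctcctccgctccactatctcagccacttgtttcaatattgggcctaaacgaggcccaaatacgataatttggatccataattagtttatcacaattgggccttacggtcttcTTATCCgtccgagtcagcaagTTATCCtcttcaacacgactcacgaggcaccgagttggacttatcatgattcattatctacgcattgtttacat
BAM9 (chr5:6225706-6225955, forward strand): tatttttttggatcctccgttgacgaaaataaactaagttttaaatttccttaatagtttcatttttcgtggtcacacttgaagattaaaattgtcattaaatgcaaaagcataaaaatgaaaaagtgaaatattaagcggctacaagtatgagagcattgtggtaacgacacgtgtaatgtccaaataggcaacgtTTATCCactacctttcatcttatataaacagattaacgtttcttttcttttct
AT3G15450 (chr3:5212734-5212983, forward strand): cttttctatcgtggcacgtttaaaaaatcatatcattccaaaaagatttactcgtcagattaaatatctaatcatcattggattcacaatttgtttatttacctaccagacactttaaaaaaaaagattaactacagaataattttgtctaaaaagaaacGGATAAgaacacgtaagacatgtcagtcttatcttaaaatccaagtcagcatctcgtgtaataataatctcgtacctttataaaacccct
The element was found in 11.5% of the windows of genes at least 2-fold higher, against 16% of all windows. It was found in 25.6% of the windows of genes at least 2-fold lower. Among genes at least 4-fold lower it was 33.1%, and among those at least 16-fold lower 27.8% of 36. Its share in the list of darkness and sugar shortage was not computed. It was 42.1% of 19 Calvin cycle genes, 13.3% of 15 photorespiration genes and 23.5% of 17 starch breakdown genes. The GRP7 promoter printed above, of a gene higher in ibm1-3, also holds the element, unmarked.

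Trehalose phosphate genes were split, whereas amino acid breakdown and autophagy genes fell more often than they rose. In trehalose phosphate metabolism, whose product signals sucrose status, 6 of 14 genes tested rose and 6 fell, with 3 at least 2-fold each way and a median of -0.16 (-0.33 with size factors); with size factors 3 were at least 2-fold higher and 5 lower. Class II trehalose phosphate synthase relatives went both ways. TPS5 had 19.2 and 19.9 FPKM in ibm1-3 against 0.63 and 0.72 FPKM in WT (3.62 ± 0.12, adjusted p = 2.11e-07). TPS9 had 2.48 and 2.04 FPKM in ibm1-3 against 72.7 and 47.7 FPKM in WT (-4.20 ± 0.12, adjusted p = 1.06e-07). TPS11 had 7.15 and 6.18 FPKM in ibm1-3 against 105 and 104 FPKM in WT (-3.78 ± 0.08, adjusted p = 3.84e-08). Among 13 genes of amino acid breakdown 6 fell, 2 rose and 5 did not pass, with 5 at least 2-fold lower, 1 at least 2-fold higher and a median of -0.16 (-0.44 with size factors). IVD, isovaleryl-CoA dehydrogenase of leucine breakdown, had 18.3 and 11.6 FPKM in ibm1-3 against 96.8 and 51.8 FPKM in WT (-2.21 ± 0.08, adjusted p = 4.25e-07). The aminotransferase BCAT-2, of the first step, had 176 and 163 FPKM in ibm1-3 against 68.3 and 60.9 FPKM in WT (1.38 ± 0.06, adjusted p = 6.6e-07). Of 23 autophagy genes 15 fell, 1 rose and 7 did not pass, 6 were at least 2-fold lower and none at least 2-fold higher, and the median was -0.67 (-0.93 with size factors). With size factors 21 fell and 11 were at least 2-fold lower, and without the replicate block 5 fell. ATG8 proteins are ubiquitin-like and coat the autophagosome membrane. ATG8H had 5.44 and 6.52 FPKM in ibm1-3 against 42.1 and 43.6 FPKM in WT (-2.65 ± 0.09, adjusted p = 2.2e-07). ATG8E had 21.8 and 18.4 FPKM in ibm1-3 against 108 and 136 FPKM in WT (-2.54 ± 0.12, adjusted p = 1.25e-06). NBR1, a cargo receptor, had 176 and 187 FPKM in ibm1-3 against 196 and 199 FPKM in WT and did not pass (-0.12 ± 0.06, adjusted p = 0.0953).

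Genes of carbon fixation and photorespiration were lower in ibm1-3. Rubisco fixes carbon dioxide in the Calvin cycle, and its reaction with oxygen feeds photorespiration, which runs through chloroplast, peroxisome and mitochondrion. Of 19 Calvin cycle genes, 18 fell and 15 were at least 2-fold lower in both pairs (median -1.42, or -1.72 with size factors). Of 15 photorespiration genes, 15 fell and 13 were at least 2-fold lower (median -1.61, or -1.91 with size factors). None of either list rose. Without the replicate block 9 and 10 genes of these lists fell. RCA, Rubisco activase, had 1165 and 1295 FPKM in the ibm1-3 libraries, against 7923 and 8511 FPKM in the WT libraries (-2.74 ± 0.08, adjusted p = 1.32e-07). RBCS3B, a Rubisco small subunit with near-identical copies whose reads could be split between them, had 382 and 669 FPKM in ibm1-3 against 4607 and 6905 FPKM in WT (-3.48 ± 0.08, adjusted p = 5.78e-08). Triose phosphate isomerase of the plastid, TIM, did not pass, at 129 and 127 FPKM in ibm1-3 against 137 and 134 FPKM in WT (-0.09 ± 0.06, adjusted p = 0.2). CAT2 (AT4G35090), the leaf catalase that removes photorespiratory hydrogen peroxide, had 118 and 197 FPKM in ibm1-3 against 1429 and 2392 FPKM in WT (-3.59 ± 0.06, adjusted p = 1.85e-08). GGAT1 (AT1G23310), a peroxisomal aminotransferase, had 441 and 580.4 FPKM in ibm1-3 against 2262 and 2839 FPKM in WT (-2.32 ± 0.07, adjusted p = 1.32e-07). Calvin cycle genes together held 1.49% and 1.93% of the FPKM sum in the ibm1-3 libraries, against 5.57% and 7.23% in the WT libraries. A different catalase went the other way. CAT3 (AT1G20620), whose transcript peaks in the evening, was among the largest gains in FPKM at 2158 and 3365 FPKM in ibm1-3 against 742 and 1067 FPKM in WT (1.60 ± 0.07, adjusted p = 9.32e-07).

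The promoter of RCA holds 1 copy of the I-box GATAAG, a motif known from light-regulated promoters, beginning 133 bases before the start.
RCA (chr2:16573693-16573942, reverse strand): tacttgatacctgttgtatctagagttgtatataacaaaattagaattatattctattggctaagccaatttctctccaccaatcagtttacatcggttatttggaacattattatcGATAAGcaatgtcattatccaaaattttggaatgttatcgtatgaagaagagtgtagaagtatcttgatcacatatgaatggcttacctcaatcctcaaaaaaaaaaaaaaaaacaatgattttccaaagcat
The I-box was found in 12% of the windows of genes at least 2-fold higher, against 14.9% of all windows. It was found in 24.3% of the windows of genes at least 2-fold lower. Among genes at least 4-fold lower it was 27.5%, and among those at least 16-fold lower 36.1% of 36. The I-box share was 36.8% of 19 Calvin cycle genes but 13.3% of 15 photorespiration genes, which is below that of all windows.

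Chlorophyll synthesis genes went both ways, with the larger changes downward. Of 21 genes tested, 11 fell, 8 rose and 2 did not pass, with 6 at least 2-fold lower and 2 at least 2-fold higher and a median of -0.28 (-0.57 with size factors). With size factors 12 fell and 4 rose, with 7 at least 2-fold lower and 2 higher. The FPKM of the list summed to 835 and 909 in the ibm1-3 libraries, against 1540.0 and 1780.0 in the WT libraries. The largest changes were falls in steps from the magnesium branch on. GUN4, which stimulates magnesium chelatase, had 2.92 and 4.38 FPKM in ibm1-3 against 58.8 and 86.4 FPKM in WT (-3.98 ± 0.08, adjusted p = 3.84e-08). GUN5, the H subunit of that enzyme, had 31.9 and 31.5 FPKM in ibm1-3 against 188 and 187 FPKM in WT (-2.53 ± 0.06, adjusted p = 5.74e-08). CAO (AT1G44446), which makes chlorophyll b, had 5.57 and 5.68 FPKM in ibm1-3 against 76.2 and 79.1 FPKM in WT (-3.57 ± 0.07, adjusted p = 4.09e-08). LIN2, coproporphyrinogen oxidase of the earlier common branch, had 64.2 and 76.6 FPKM in ibm1-3 against 42.8 and 52.3 FPKM in WT and a log2 fold change of 0.56 ± 0.06, adjusted p = 0.000101, with adjusted p = 0.132 without the replicate block.

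Genes encoded by the plastid genome were also lower. Of 76 tested, 54 fell, 4 rose and 18 did not pass, 32 were at least 2-fold lower and 1 at least 2-fold higher, and the median was -0.95 (-1.15 with size factors). Without the replicate block 17 fell. YCF9, a small photosystem II protein, had 11.3 and 10.7 FPKM in ibm1-3 against 76.6 and 55.5 FPKM in WT (-2.47 ± 0.10, adjusted p = 5.56e-07). PSBI had 28.3 and 11.5 FPKM in ibm1-3 against 109 and 70.6 FPKM in WT (-2.21 ± 0.13, adjusted p = 3.7e-06). Genes of the mitochondrial genome differed in the opposite direction. Of 45 tested, 35 rose, 1 fell and 9 did not pass, 10 were at least 2-fold higher and none at least 2-fold lower, and the median was 0.86 (0.68 with size factors). The 2-fold share of all genes was 16.2%. With size factors 5 of the 45 were at least 2-fold higher, about the 11.3% of all genes on that scale, and without the replicate block 9 rose. NAD1B, of respiratory complex I, had 15.9 and 10.8 FPKM in ibm1-3 against 2.04 and 0.9 FPKM in WT (2.56 ± 0.12, adjusted p = 1.19e-06). Organelle transcripts are mostly without a poly(A) tail, and how RNA was selected for these libraries is not given in the sources used here.

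Cytosolic ribosomal protein genes were nearly all higher. Of 194 tested, 185 rose, 3 fell and 6 did not pass, 83 were at least 2-fold higher and 2 at least 2-fold lower in both pairs, and the median was 1.0 (0.71 with size factors). With size factors 37 were at least 2-fold higher, and without the replicate block 81 rose. Together they held 2.65% and 2.7% of the FPKM sum in the ibm1-3 libraries, against 1.33% and 1.36% in the WT libraries. RPL23AB, of the large subunit, had 57.3 and 65 FPKM in ibm1-3 against 9.5 and 16.1 FPKM in WT (2.21 ± 0.12, adjusted p = 2.36e-06). Many of these genes have near-identical copies, so single genes are uncertain. Nuclear genes for bacterial-type ribosomal proteins, which serve plastids and mitochondria, went both ways. Of 102, 60 rose and 33 fell, with a median of 0.57 (0.31 with size factors). At least 2-fold, 21 were higher and 9 lower, beside 16.2% and 8.58% of all genes tested. With size factors these were 13 and 20, beside 11.3% and 12.1% of all genes. Summed over genes the list was lower, with 0.589% and 0.633% of the FPKM sum in the ibm1-3 libraries, against 0.85% and 0.905% in the WT libraries. The largest called changes of the list were rises. AT3G06320 had 8.95 and 12.1 FPKM in ibm1-3 against 1.27 and 0.89 FPKM in WT (2.46 ± 0.17, adjusted p = 9.65e-06). EMB3126, a plastid ribosomal protein, had 171 and 181 FPKM in ibm1-3 against 432 and 448 FPKM in WT (-1.32 ± 0.06, adjusted p = 7.46e-07).

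Genes for ribosome assembly were higher too. Of 17 nucleolus and ribosome biogenesis genes, 17 rose and 8 were at least 2-fold higher, with a median of 1.07 (0.78 with size factors). FIB2, a fibrillarin that methylates ribosomal RNA, had 22 and 24.7 FPKM in the ibm1-3 libraries, against 2.84 and 2.55 FPKM in the WT libraries (2.72 ± 0.11, adjusted p = 6.16e-07). NUC-L1, the main nucleolin, had 254 and 207 FPKM in ibm1-3 against 88.1 and 68.3 FPKM in WT (1.55 ± 0.06, adjusted p = 3.83e-07). NOP56, a partner of fibrillarin, had 52.6 and 64.1 FPKM in ibm1-3 against 16.6 and 22.1 FPKM in WT (1.55 ± 0.07, adjusted p = 8.93e-07). All 3 had mutant values over 2-fold above the WT values in both pairs. The NOP56 promoter carries the telo-box AAACCCTA, a motif known from ribosomal protein promoters, 17 bases before the start.
NOP56 (chr1:20986953-20987202, reverse strand): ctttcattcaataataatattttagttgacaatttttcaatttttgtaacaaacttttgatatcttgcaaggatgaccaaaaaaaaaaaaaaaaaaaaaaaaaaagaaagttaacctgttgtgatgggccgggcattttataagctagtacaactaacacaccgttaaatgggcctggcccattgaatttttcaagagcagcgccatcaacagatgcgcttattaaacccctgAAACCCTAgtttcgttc
The telo-box was found in 46.4% of the windows of the cytosolic ribosomal protein genes and 47.1% of those of the nucleolus list, against 5.59% of all windows, and the site II element TGGGCC in 65.5% and 64.7%, against 19.6%. Over all genes at least 2-fold higher the telo-box share was 6.96%, and over those at least 2-fold lower 3.42%. At the 4-fold cutoff the telo-box shares were 3.24% and 2.65%, both below the share of all windows. The site II element was found in 16.9% of the windows of genes at least 2-fold higher and in 13.4% of those lower. Both were below its 19.6% of all windows.

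Genes of protein folding in the endoplasmic reticulum leaned higher. Of 25 genes tested, 18 rose, 1 fell and 6 did not pass, 6 were at least 2-fold higher and none at least 2-fold lower, and the median was 0.72 (0.43 with size factors). With size factors 17 rose and 4 fell, and 2 were at least 2-fold higher, a share below the 11.3% of all genes on that scale. Without the replicate block 6 rose. BZIP60, the transcription factor of the unfolded protein response, had 247 and 326 FPKM in ibm1-3 against 71.7 and 91.9 FPKM in WT (1.79 ± 0.06, adjusted p = 1.91e-07). PDIL1-1, a protein disulfide isomerase, had 127 and 129 FPKM in ibm1-3 against 50.7 and 50 FPKM in WT (1.33 ± 0.06, adjusted p = 8.15e-07).

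Genes switched on within minutes by calcium, touch or wounding were much higher in ibm1-3. Touch, cold and wounding raise cytosolic calcium, which is read by calmodulin-like proteins and followed by a burst of short-lived transcripts. Of 30 genes listed, 26 rose, 3 fell and 1 did not pass, 22 were at least 2-fold higher and 2 at least 2-fold lower in both pairs, and the median was 1.96 (1.77 with size factors). DDF2 had no fragment in either WT library; with it at the bound that 3 fragments in pair 1 give, the median was 2.23. The list held 0.873% and 0.809% of the FPKM sum in the ibm1-3 libraries, against 0.248% and 0.237% in the WT libraries. FBS1, a stress-induced F-box protein, had 231 and 174 FPKM in the ibm1-3 libraries, against 3.68 and 2.21 FPKM in the WT libraries (5.70 ± 0.07, adjusted p = 1.48e-08). CML38, a calmodulin-like protein, had 635 and 494 FPKM in ibm1-3 against 13.4 and 10.3 FPKM in WT (5.45 ± 0.06, adjusted p = 1.48e-08). RRTF1, a redox-responsive ERF transcription factor, had 210.1 and 164 FPKM in ibm1-3 against 7.17 and 3.44 FPKM in WT (4.96 ± 0.12, adjusted p = 6.28e-08). Mutant and WT values of these genes were separated by over 20-fold in each pair. TZF1 (ATCTH), a tandem zinc finger protein, was the member furthest the other way, with 0.91 and 0.42 FPKM in ibm1-3 against 28.6 and 29.8 FPKM in WT (-4.20 ± 0.14, adjusted p = 2.54e-07). MKK9, a kinase of the ethylene and camalexin response, fell with 20.4 and 45.5 FPKM in ibm1-3 against 35.4 and 70.2 FPKM in WT (-0.69 ± 0.07, adjusted p = 7e-05, and adjusted p = 0.402 without the replicate block). The zinc finger gene ZAT6 had 65.2 and 149 FPKM in ibm1-3 against 72.8 and 145 FPKM in WT and did not pass (-0.06 ± 0.07, adjusted p = 0.435).

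PHI-1, a phosphate-responsive family protein, had one of the highest fold changes, with 173 and 155 FPKM in the ibm1-3 libraries, against 1.66 and 1.69 FPKM in the WT libraries (5.95 ± 0.08, adjusted p = 1.48e-08). Its promoter holds 1 copy of the core of the rapid stress response element, CGCGTT, on the opposite strand, 100 bases before the start.
PHI-1 (chr1:12851733-12851982, forward strand): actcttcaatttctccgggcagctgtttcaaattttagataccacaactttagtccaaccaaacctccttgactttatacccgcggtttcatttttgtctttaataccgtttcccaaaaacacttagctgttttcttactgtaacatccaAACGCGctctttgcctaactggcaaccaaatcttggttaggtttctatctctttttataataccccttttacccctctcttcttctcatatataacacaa
The core was found in 7.35% of the windows of genes at least 2-fold higher, against 3.92% of all windows. It was found in 2.53% of the windows of genes at least 2-fold lower. Among genes at least 4-fold higher it was 10.8%, and among those at least 16-fold higher 11.1% of 54. Of the other motifs searched on both strands, the G-box CACGTG was found in 8.88% of the windows of genes at least 2-fold higher, 12.7% of those at least 2-fold lower and 9.15% of all. The abscisic acid element ACGTGTC was found in 5.07%, 8.29% and 5.17%, and the W-box TTGACC in 15.2%, 13.6% and 14.6%, in the same order of gene groups. The CCA1-binding site AAAAATCT, named for binding by CCA1, was found in 8.13%, 8.84% and 8.28%, so its share differed little between these groups. At the 16-fold cutoff given above for the evening element, the G-box was found in 20.4% of 54 higher genes and 19.4% of 36 lower genes. The G-box and the abscisic acid element overlap in letters and are not counted apart. The same holds for the I-box GATAAG and the sugar repression element, whose reverse complement GGATAA shares the letters GATAA. The marked copy in the AT3G15450 promoter and the first marked copy in the SEN1 promoter are also I-boxes. The RCA promoter, shown for its I-box, also holds TTATCC, unmarked.

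**Figure D4:**
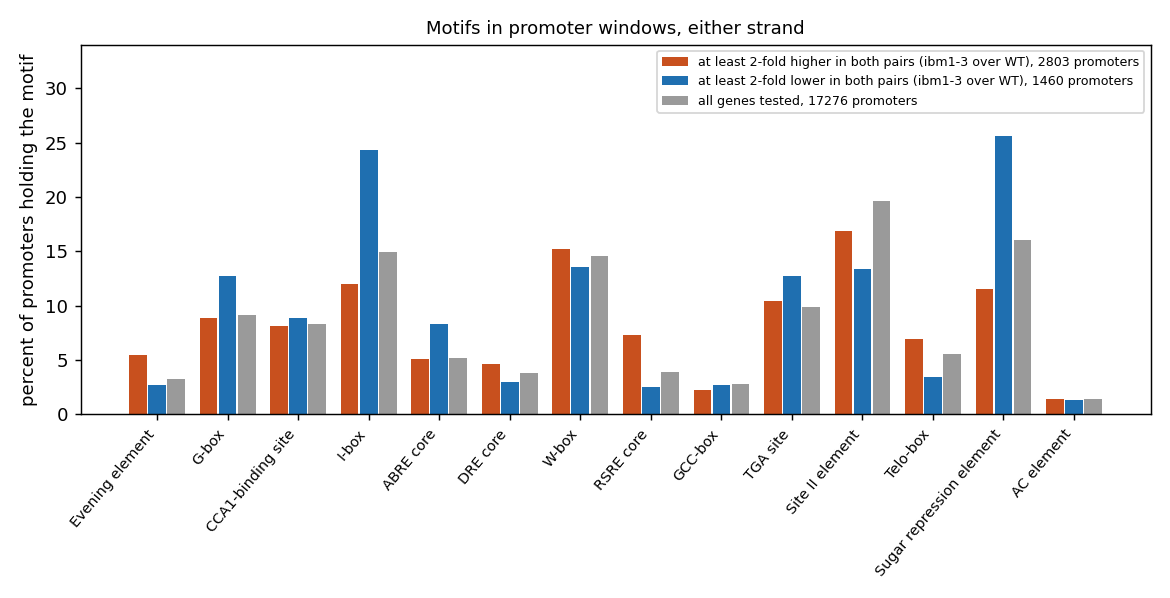
Percent of promoter windows (250 bases before to 50 after the gene start) that hold each of 14 motifs on either strand, for 2803 genes at least 2-fold higher in ibm1-3, 1460 at least 2-fold lower and all 17276 genes with a window. The I-box and sugar repression element bars are highest for lower genes, and the evening element and rapid stress response element (RSRE) bars for higher genes. The I-box and the sugar repression element overlap in letters and are not separate counts.

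Wounding and camalexin genes followed the same direction. Of 28, 23 rose, 3 fell and 2 did not pass, 18 were at least 2-fold higher and none at least 2-fold lower, and the median was 1.35 (1.07 with size factors). WRKY40 and WRKY18 are partner transcription factors of the early immune response. WRKY40 had 419 and 449 FPKM in ibm1-3 against 29.4 and 26.2 FPKM in WT (3.92 ± 0.07, adjusted p = 2.85e-08). WRKY18 had 496 and 361 FPKM in ibm1-3 against 55.4 and 39.3 FPKM in WT (3.15 ± 0.06, adjusted p = 2.37e-08). WRKY22, which acts below flagellin signalling, had 51.2 and 76.3 FPKM in ibm1-3 against 5 and 8.75 FPKM in WT (3.05 ± 0.08, adjusted p = 8.45e-08). WRKY70, of the salicylate branch, fell, at 110.0 and 123 FPKM in ibm1-3 against 183 and 217 FPKM in WT (-0.77 ± 0.06, adjusted p = 1.39e-05), with adjusted p = 0.0601 without the replicate block.

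**Figure D5:**
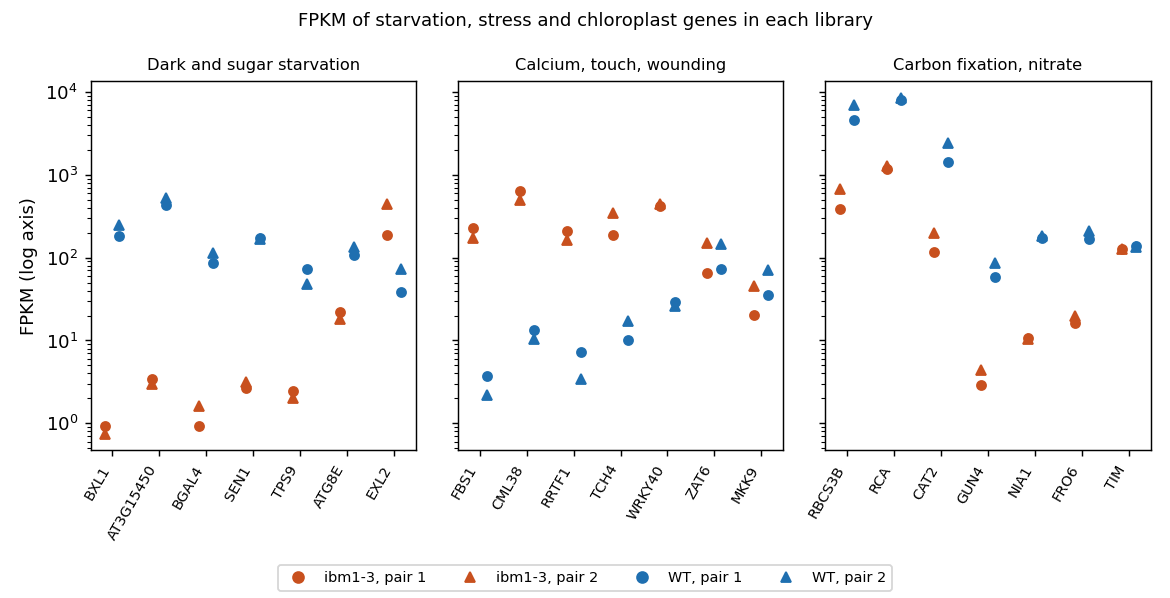
FPKM (log axis) of genes of darkness and sugar starvation, of calcium, touch and wounding, and of carbon fixation and nitrate assimilation in each library, ibm1-3 left of WT for each gene; circles are pair 1 and triangles pair 2. BXL1 to ATG8E and RBCS3B to FRO6 are low in ibm1-3, FBS1 to WRKY40 are high, and ZAT6 and TIM lie close together within each pair, with EXL2 high and MKK9 low in ibm1-3.

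Hormone genes showed single large differences within lists that did not lean far. For abscisic acid, which closes stomata, 12 of 28 genes tested rose and 12 fell, with 8 at least 2-fold higher and 3 at least 2-fold lower (median -0.05, or -0.31 with size factors); with size factors 7 were at least 2-fold higher and 6 lower. CYP707A3, the hydroxylase that breaks abscisic acid down, had 175 and 219 FPKM in the ibm1-3 libraries, against 2.44 and 2.7 FPKM in the WT libraries (5.78 ± 0.08, adjusted p = 1.52e-08). CYP707A1 had 25.9 and 36.5 FPKM in ibm1-3 against 1.4 and 1.81 FPKM in WT (3.61 ± 0.11, adjusted p = 1.72e-07). Both stood over 10-fold higher in each pair. NCED4, a carotenoid cleavage enzyme, had 11 and 13 FPKM in ibm1-3 against 194 and 233 FPKM in WT (-4.04 ± 0.06, adjusted p = 1.79e-08). For cytokinin, 9 of 23 rose and 8 fell, and with size factors 8 rose and 9 fell. AHP4, a phosphotransfer protein that dampens cytokinin responses, had 63.8 and 39.1 FPKM in ibm1-3 against 0.21 and 0.3 FPKM in WT (5.34 ± 0.18, adjusted p = 2.57e-07). Type A response regulators, which feed back on the signal, went both ways. ARR7 had 21.6 and 28.5 FPKM in ibm1-3 against 0.71 and 1.39 FPKM in WT (3.68 ± 0.11, adjusted p = 1.59e-07). ARR9 had 1.18 and 0.94 FPKM in ibm1-3 against 6.52 and 5.13 FPKM in WT (-1.72 ± 0.14, adjusted p = 1.65e-05). The list median was 0.12 (-0.09 with size factors), of opposite sign on the 2 scales.

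Auxin response genes leaned higher, with 16 of 26 higher, 5 lower and 7 at least 2-fold higher, against 1 at least 2-fold lower (median 0.45, or 0.16 with size factors); with size factors 13 rose and 9 fell. SHY2 (IAA3), a repressor of auxin responses, had 47.1 and 34.2 FPKM in ibm1-3 against 4.89 and 2.96 FPKM in WT (3.09 ± 0.09, adjusted p = 1.36e-07). PIN7, an auxin efflux carrier, had 21.9 and 20.9 FPKM in ibm1-3 against 2.42 and 2.41 FPKM in WT (2.71 ± 0.10, adjusted p = 4.24e-07). SAUR genes, small growth-related auxin transcripts, were split, with 4 at least 2-fold higher and 11 at least 2-fold lower of 30, and a median of 0.10 (-0.16 with size factors), whose sign turned with the scaling. Of 22 gibberellin and brassinosteroid genes, 11 rose and 5 fell (median 0.33, or 0.06 with size factors), and with size factors 10 rose and 8 fell. Over all genes tested 49.2% rose and 26.0% fell, with a median of 0.25. The counts of this list and of the ethylene list below were near those shares. GA2OX6, which inactivates gibberellin, had 51 and 66.2 FPKM in ibm1-3 against 8.81 and 9.52 FPKM in WT (2.54 ± 0.09, adjusted p = 2.78e-07). Of 20 ethylene genes, 10 rose and 4 fell (median 0.22, or -0.07 with size factors), whereas with size factors 7 rose and 9 fell. ACS6, which makes the ethylene precursor, had 149 and 136 FPKM in ibm1-3 against 33.6 and 30.4 FPKM in WT (2.12 ± 0.06, adjusted p = 1.16e-07). ORA59, a factor that joins ethylene and jasmonate signals at defensin genes, had 11.4 and 12.7 FPKM in ibm1-3 against 36.3 and 35.5 FPKM in WT (-1.50 ± 0.08, adjusted p = 2.36e-06).

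Wall loosening and wax genes were mostly higher and aquaporins mostly lower. Of 20 wall loosening genes, 12 rose and 6 fell, with 9 at least 2-fold higher and 3 at least 2-fold lower (median 0.78, or 0.56 with size factors). Xyloglucan endotransglucosylases, which cut and rejoin wall polymers, went both ways. TCH4 had 186 and 343 FPKM in ibm1-3 against 10.3 and 17.3 FPKM in WT (4.14 ± 0.07, adjusted p = 1.85e-08). XTH18 had 45 and 56 FPKM in ibm1-3 against 2.23 and 2.86 FPKM in WT (3.86 ± 0.09, adjusted p = 5.71e-08). EXGT-A3 of the same family had 82.6 and 87.7 FPKM in ibm1-3 against 234 and 239 FPKM in WT (-1.46 ± 0.06, adjusted p = 4.77e-07). Of 21 wax and cutin genes, 17 rose and 2 fell, with 12 at least 2-fold higher and 1 at least 2-fold lower (median 1.39, or 1.13 with size factors). LACS1, an acyl-CoA synthetase of wax synthesis, had 71.5 and 66.5 FPKM in ibm1-3 against 16.1 and 13 FPKM in WT (2.18 ± 0.08, adjusted p = 2.84e-07). MYB30, a factor that raises wax synthesis, had 21.9 and 23.1 FPKM in ibm1-3 against 3.77 and 3.89 FPKM in WT (2.28 ± 0.10, adjusted p = 6.6e-07). CER1, of alkane formation, fell, at 0.3 and 0.27 FPKM in ibm1-3 against 3.85 and 4.63 FPKM in WT (-2.02 ± 0.15, adjusted p = 1.36e-05). Epidermis and trichome markers held 0.0446% and 0.0682% of the FPKM sum in the ibm1-3 libraries, against 0.0239% and 0.0343% in the WT libraries. Of 11 tested, 8 rose and 3 fell (median 0.87, or 0.57 with size factors). At least 2-fold, 2 were higher and 2 lower, beside 16.2% and 8.58% of all genes tested. With size factors these were 1 and 2, beside 11.3% and 12.1% of all genes. CER1 is on both the wax and the epidermis list, so the lists are not independent. The part of epidermis markers in the wax result was not tested. Of 15 aquaporins, 10 fell and 5 rose, 6 were at least 2-fold lower and none at least 2-fold higher, with a median of -0.49 (-0.78 with size factors). With size factors 2 rose and 10 fell, and without the replicate block 2 fell. PIP1C, a water channel of the plasma membrane, had 4.22 and 6.53 FPKM in ibm1-3 against 27 and 53.9 FPKM in WT (-2.65 ± 0.12, adjusted p = 8.49e-07). PIP2B of the same family had 10.4 and 19.8 FPKM in ibm1-3 against 51.4 and 96.4 FPKM in WT (-2.21 ± 0.07, adjusted p = 1.63e-07).

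Mineral nutrition differed by element. Of 31 nitrate and sulfate genes, 15 fell, 11 rose and 5 did not pass, with 9 at least 2-fold lower and 5 at least 2-fold higher (median -0.24, or -0.49 with size factors). NIA1, a nitrate reductase, had 10.8 and 10.4 FPKM in ibm1-3 against 173 and 184 FPKM in WT (-3.95 ± 0.07, adjusted p = 1.99e-08). NIA2, the other one, had 185 and 168 FPKM in ibm1-3 against 934 and 894 FPKM in WT (-2.37 ± 0.06, adjusted p = 7.78e-08). AT5G37600, a cytosolic glutamine synthetase, had 973 and 1116 FPKM in ibm1-3 against 441 and 495 FPKM in WT (1.15 ± 0.06, adjusted p = 2.23e-06). Of 21 phosphate starvation genes, 17 rose and 3 fell, with 11 at least 2-fold higher and 2 at least 2-fold lower (median 1.25, or 0.97 with size factors). PHT1;4, a phosphate importer, had 26.2 and 39.5 FPKM in ibm1-3 against 0.86 and 2.16 FPKM in WT (3.77 ± 0.11, adjusted p = 1.28e-07). MGDC, a galactolipid synthase induced by phosphate shortage, had 21 and 14.9 FPKM in ibm1-3 against 0.93 and 0.43 FPKM in WT (3.49 ± 0.12, adjusted p = 2.56e-07). PHT1;4 is also on the list of root markers, of which 4 of 18 were tested; these held 0.00641% and 0.0087% of the FPKM sum in ibm1-3, against 0.00229% and 0.0031% in WT, and the other 14 were not in both tables. Of 19 iron genes, 12 fell, 3 rose and 4 did not pass (median -0.69, or -0.98 with size factors). FRO6, a ferric reductase of leaf cells, had 16.1 and 19.7 FPKM in ibm1-3 against 170.3 and 209 FPKM in WT (-3.33 ± 0.06, adjusted p = 2.46e-08). FRO7, its chloroplast relative, had 20 and 27 FPKM in ibm1-3 against 172 and 222 FPKM in WT (-3.02 ± 0.06, adjusted p = 3.47e-08). The ferritin FER3, which stores iron in plastids, had 37.3 and 56.5 FPKM in ibm1-3 against 7.66 and 8.45 FPKM in WT (2.38 ± 0.12, adjusted p = 1.31e-06).

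Markers of other cell types and of dividing cells were counted in the same way. Of 10 guard cell genes, 4 rose and 3 fell, with 1 at least 2-fold higher (median 0.19, or -0.09 with size factors; with size factors 1 rose and 3 fell). Of 14 phloem and vessel genes, 10 rose and 1 fell, with 3 at least 2-fold higher (median 0.53, or 0.32 with size factors; with size factors 7 rose, 3 fell and none was at least 2-fold higher), and PP2-A1, a phloem protein, had 354 and 381 FPKM in ibm1-3 against 166 and 169 FPKM in WT (1.13 ± 0.06, adjusted p = 1.89e-06). Of 16 cell cycle genes, 7 rose and 5 fell, none at least 2-fold higher and 1 at least 2-fold lower (median 0.09, or -0.13 with size factors; with size factors 6 rose and 7 fell). The last was CYCD3;2, a D-type cyclin, with 4.47 and 4.41 FPKM in ibm1-3 against 16.1 and 19.2 FPKM in WT (-1.77 ± 0.11, adjusted p = 4.51e-06). Flower and seed markers held 0.00168% and 0.00219% of the FPKM sum in ibm1-3, against 0.00207% and 0.00221% in WT, and 1 of the 3 tested rose and 1 fell. Of 5 meristem and young leaf genes tested, 3 rose and 2 did not pass.

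Several of the largest gains in FPKM were in stress proteins. ERD10, a dehydrin that protects cells in cold and drought, had 3168 and 1517 FPKM in the ibm1-3 libraries, against 245 and 120.3 FPKM in the WT libraries (3.67 ± 0.06, adjusted p = 1.85e-08). COR47 of the same family had 1614 and 1413 FPKM in ibm1-3 against 292 and 269 FPKM in WT (2.42 ± 0.06, adjusted p = 8.44e-08). In both, the mutant libraries were the high ones without overlap. PRXR1, a peroxidase, had 1610.0 and 1917 FPKM in ibm1-3 against 364 and 425 FPKM in WT (2.15 ± 0.06, adjusted p = 1.41e-07). SRC2, a membrane protein induced by cold, had 1189 and 1359 FPKM in ibm1-3 against 310.3 and 332 FPKM in WT (1.98 ± 0.06, adjusted p = 1.98e-07). Among the largest losses was PSBR, a photosystem II protein of the oxygen-evolving side, with 2257 and 1726 FPKM in ibm1-3 against 11308 and 7979 FPKM in WT (-2.27 ± 0.09, adjusted p = 4.15e-07).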

How the data were processed

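RNA-seq of rosette leaves was compared between 2 ibm1-3 and 2 WT libraries, grouped by the submitters' labels; the low light table was not analysed here. For pair 1 the authors deposited estimated counts of fragments and FPKM, per the file headers, with the gene length in bases. For pair 2 they deposited 1 value per library under a heading for expression, with fractions and sums like the FPKM of pair 1, and it was used as FPKM. In both, 0.01 stood for no fragment. Per the submitters' processing notes, Bowtie2 and TAIR10 were used; which program counted the fragments is not given in the sources used here. Columns of pair 1 carry no replicate number, so pairing rests on the shared table and on the column headings, against the description labels.

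The tables held 22446 and 23699 rows; 1003 rows of pair 2 with a transcript suffix were left out, and 21437 genes were shared, 21267 of them matched to RefSeq. No column of per-sample values in these tables was left unused. Genes of at least 1 FPKM in 2 of 4 libraries (17399) were tested on log2(FPKM + 1), which understates the change of low genes, with limma 3.58.1 (R 4.3.3; trend in the prior; table and genotype as terms; 1 residual and 6.17 prior degrees of freedom). Deviations from the group means correlated at 0.895 between libraries of 1 table. A size factor is the median ratio of a library to the geometric mean over libraries.

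Named genes were IBM1, the 20 highest and 20 lowest fold changes among genes of at least 5 FPKM passing the stricter rule, the 10 largest gains and 10 largest losses in FPKM, 5 genes each way with no fragment in 1 genotype, 5 with opposite ratios, and up to 4 called and 2 other members of each list; the text names part of these. The comparison, the lists and the tests were chosen with earlier results of these data known; the clock list was added, and the ribosomal lists were redrawn by annotation, after values had been seen. Promoter windows came from RefSeq TAIR10.1; all 21266 gene spans that could be set beside it overlapped, 62.1% with the same ends. Tables and figures were made with Python 3.11.15, pandas 2.3.3 and matplotlib 3.10.9. Alternatives were other pseudocounts, filters and scalings, no replicate block, no trend in the prior and each pair alone.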

Additional observations from a re-analysis of the deposited data

How the results depend on the processing

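The pairing by table decided how many genes passed. Without the replicate block 4622 genes were called, 3161 with higher and 1461 with lower values in the mutant. Among the 107 genes named in the text 6 lost their call, namely LIN2, RBCS1A, MKK9, BAM1, WRKY70 and CT-BMY. With a pseudocount of 5, 2510 genes were at least 2-fold in both pairs, 1472 of them higher. With 1 pair left out, the ratio of the other pair alone gave 4969 to 5107 genes at least 2-fold, 3231 to 3468 higher and 1639 to 1738 lower, with no test. Of the gene list medians, 18 stood above the median of all genes tested, and 18 to 20 when 1 pair was left out. IBM1 turned to -0.18 with size factors and -0.17 with quantile normalization, and ran from -0.14 to 0.33 when 1 pair was left out. Size factors also turned the list medians of cytokinin response (-0.09), ethylene (-0.07), cell cycle (-0.13), guard cell markers (-0.09), clock genes (-0.10) and SAUR genes (-0.16), and the values of CT-BMY (-0.04) and PRR5 (-0.18). On that scale TIM, NBR1 and ZAT6, which had not passed, were called lower in ibm1-3. They stood at -0.385, -0.418 and -0.359 (limma, adjusted p = 0.000432, adjusted p = 0.000225 and adjusted p = 0.00113). Quantile normalization turned cytokinin response (-0.20), cell cycle (-0.23), guard cell markers (-0.05), SAUR genes (-0.19) and PRR5 (-0.04). A filter of 5 FPKM turned cell cycle (-0.16) and SAUR genes (-0.76), and a pseudocount of 0.1 turned AT2G11271 (-0.42). Without pair 1 the abscisic acid median was 0.01, and ZAT6 stood at 0.04. The SAUR median ran from -0.01 to 0.06 when 1 pair was left out, AT1G19540 from -1.40 to 2.18, AT2G11271 from -0.80 to 1.19 and NUDT6 from -2.10 to 3.18. Size factors and quantile normalization recentre all genes; the cause of the other turns was not tested. With 2 libraries per genotype and no fragment counts listed for pair 2, differences in genes of a few FPKM are the least certain.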

Other observations

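A few transcripts were listed in 1 genotype and at the stand-in for no fragment in the other. In both WT libraries 13 genes were at the stand-in while both ibm1-3 libraries had at least 1 FPKM, and 16 genes showed the reverse. RL1, a small MYB-like protein, had 8.43 and 9.47 FPKM in the ibm1-3 libraries (86 fragments in pair 1). EXLA3, an expansin-like protein, had 1.95 and 2.24 FPKM, and DDF2, a CBF-related factor of dehydration and salt responses, had 3.3 and 1.52 FPKM. Of the genes at the stand-in in both ibm1-3 libraries, AT1G23510 had 10.9 and 6.61 FPKM in the WT libraries (123 fragments in pair 1) and the membrane protein gene MLO9 had 5.74 and 6.53 FPKM. No fold is given against a group with no fragment.

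Some transcripts differed between the pairs more than between the genotypes. NUDT6, a Nudix hydrolase linked to salicylate signalling, had 12.2 and 473 FPKM in the ibm1-3 libraries, against 55.8 and 51.3 FPKM in the WT libraries, so that pair 1 was lower and pair 2 higher in the mutant. AT1G19540 had 145 and 0.66 FPKM in the ibm1-3 libraries, against 31.2 and 3.38 FPKM in the WT libraries; in both genotypes the pair 1 library was the high one. AT2G11271 showed the same order, with 69 and 0.18 FPKM in the ibm1-3 libraries, against 29.7 and 1.06 FPKM in the WT libraries. None of the 3 passed the test (adjusted p = 0.636, adjusted p = 0.618 and adjusted p = 0.666). They are 3 of the genes with the most opposite ratios among 975 uncalled genes that averaged at least 5 FPKM and took opposite signs.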
